A study of Homo sapiens and Mus musculus with 6 samples.

Results

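The promoter contacts of 9 genes of B cell receptor signalling were examined: CD79A, CD79B, MS4A1, CD22, CR2, SYK, LYN, BLK and BLNK. In the list of significant interactions called in GM12878, an interaction was kept when the name of any of these genes stood at its bait or at its other end, and 107 of the 92929 listed interactions met this rule. The mouse embryonic stem cell (mESC) list was searched for the same names without regard to case, which kept 34 of 101841 interactions. All 9 genes had at least 1 interaction in GM12878 and 5 of them, CD79A, CD79B, CD22, CR2 and LYN, had one in mESC. The lists name only genes with a call, so the GM12878 count has no share over all genes beside it. Mouse Syk is listed under another name. Of the 8 genes whose symbol is in the mouse (mm9) annotation, 3 had no mESC call. The same held for 26.8% of the 11871 such symbols called in GM12878.

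The interactions came from Promoter Capture Hi-C (CHi-C), in which chromatin is crosslinked, cut with HindIII and ligated, and ligation products that carry a promoter fragment are pulled down with designed baits and sequenced as read pairs. GM12878 is a human lymphoblastoid line, that is, B cells immortalised with Epstein-Barr virus, and was labelled B-Lymphocyte. The mESCs were of the J1 line (strain 129S4/SvJae), grown on irradiated embryonic fibroblasts from which they were separated before fixation, and neither cell type carried a treatment or an engineered allele in the labels. The 3 biological replicates of GM12878 and the 2 of mESC had each been combined by the authors into 1 set of calls, so the files hold no replicate error and no difference was tested. A Hi-C library without capture, also from mESC, served as an additional comparison. No RNA was measured here, so neither cell type could be checked against its marker genes.

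The B cell receptor is a membrane immunoglobulin that signals through CD79A (Ig-alpha) and CD79B (Ig-beta), whose cytoplasmic tails are phosphorylated by the Src-family kinases LYN and BLK and then bind the kinase SYK. SYK phosphorylates the adaptor BLNK, which gathers the enzymes that release calcium. CR2 (CD21) binds complement fragments and lowers the threshold of the receptor, and is also the receptor of Epstein-Barr virus; CD22 is an inhibitory lectin of the B cell surface; MS4A1 encodes CD20.

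2 values describe each call. The first is the number of reads joining the fragments, a weighted mean over replicates that the authors rounded. The other is the CHiCAGO score, which rises as these reads exceed the number expected at that distance and from that bait, and which is at least 5 in every listed interaction. A contact between baited fragments can be called from either end and then has the same reads but a score for each direction. The 107 GM12878 calls joined 98 fragment pairs, 9 of which were called from both ends, and the 34 mESC calls joined 29 pairs, 5 of them called from both ends. Neighbouring fragments often share a contact, so calls are not independent of each other, and the intervals given below are 95% intervals that cover counting error only. On hg19 all 105 GM12878 fragments in these calls ran from one HindIII site to the next, as did the 34 mESC fragments on mm9.

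The contacts of the 9 genes lay closer than those of the whole list. In GM12878 their median distance, measured between fragment midpoints, was 79.4 kb (67.2-95.6 kb) against 174 kb over all calls. 67 of 107 calls, or 62.6% (53.2-71.2%), spanned less than 100 kb, against 29.8% over all calls. No call with these genes joined different chromosomes, which allows a share of up to 2.80%, against 0.310% over all calls. The longest call of these genes spanned 473 kb. The share with baits at both ends was 34.6% (37 calls, 26.2-44.0%) against 29.4% over all calls. A rule that accepts a gene at either end takes in more calls between baits by construction, and with the gene at the bait end the share was 23.9%. The score reached 10 in 25 calls, 23.4% (16.4-32.2%) against 16.3%, and was under 6 in 31 calls, 29.0% (21.2-38.2%) against 35.7%. The median number of reads was 17 (15-20, range 4 to 66) against 16.

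The number of calls differed widely between the genes. BLK had 35 calls, LYN 23, CD79B and CD22 13 each, BLNK 9, CD79A and MS4A1 5 each, CR2 3 and SYK 1. Among the 21998 gene symbols of the GM12878 list, whose median was 4 calls, these counts stood at percentile 96.4 for BLK, 91.7 for LYN, 81.9 for CD79B and CD22, 73.3 for BLNK, 55.4 for CD79A and MS4A1, 38.3 for CR2 and 9.68 for SYK. The kinases thus held both the highest and the lowest counts of the set.

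**Figure D1:**
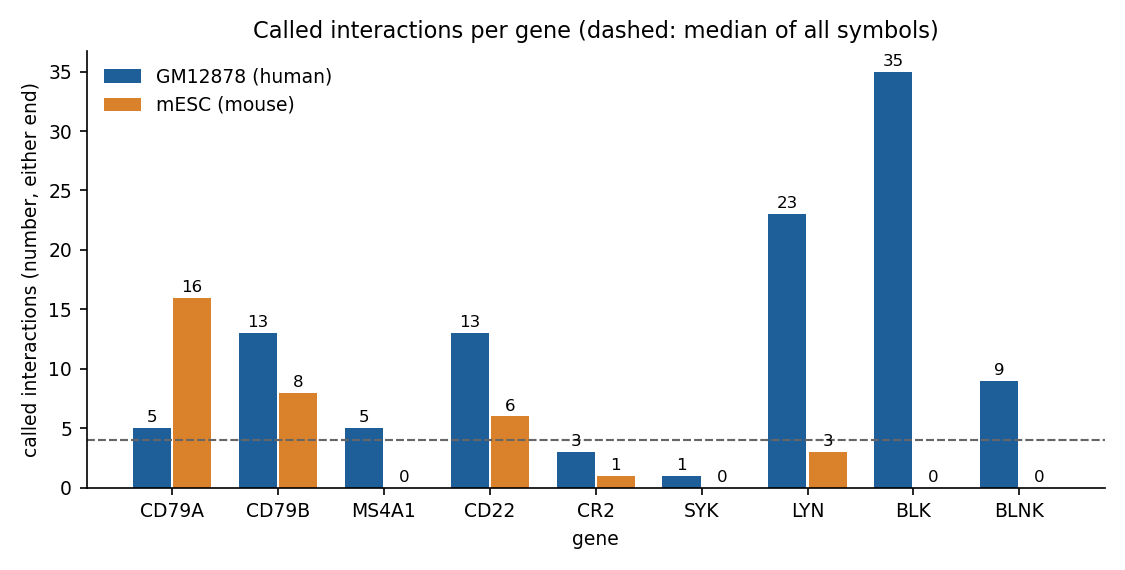
Number of called interactions (y axis) of each gene (x axis) in GM12878 (blue) and mESC (orange), with the median over all gene symbols of a list, 4 calls in each, as a dashed line. BLK has the most calls in GM12878 (35) and none in mESC. CD79A has more calls in mESC (16, from a bait shared with Arhgef1) than in GM12878 (5). The mouse gene at the Syk locus is listed under another name and is drawn as 0.

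CD79B, the partner of CD79A in the signalling dimer, gave the highest-scoring contact among the surface genes. Its start sites lie in a baited fragment of 15.6 kb (hg19 chr17:62005583-62021145) that also carries exons of SCN4A, a sodium channel gene. The fragment with the growth hormone genes CSHL1 and GH1, 21.6 kb downstream of CD79B in its direction of transcription, was joined to it by 64 reads and scored 18.5 from the CD79B bait and 10.0 from the other bait. Upstream, the fragment with a start site of ICAM2, an adhesion molecule of leukocytes and endothelium, lay at 85.6 kb and was joined by 28 reads, with scores of 12.3 and 7.98. The fragment of the small nucleolar RNA genes SNORA76 and SNORD104 lay at 210 kb and was joined by 20 reads, with scores of 13.5 and 8.43. All 3 of these contacts were called from both ends.

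The contact of CD79B with ICAM2 was also called in mESC, and the fragment starts of both species are shown because ligation in CHi-C takes place at fragment ends. Each fragment is given by its first 30 bases on the plus strand of the genome, and the capitals mark the bases left by HindIII. The 4 stretches lie outside annotated exons. The ICAM2 fragments are chr17:62097311-62100670 in hg19 and chr11:106248652-106252935 in mm9, and the mouse Cd79b fragment is chr11:106168371-106178898.
human CD79B, first bases: AGCTTtcctaggcttcctgggaggtggggg
human ICAM2, first bases: AGCTTtttatgcgttacctagtaaatttta
mouse Cd79b, first bases: AGCTTgggaaaagagaaccaagggagaccc
mouse Icam2, first bases: AGCTTttattcatatataattctgtctcca

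The other CD79B contacts in GM12878 filled in the surroundings of these 3. A run of 5 adjacent fragments over 30.5 kb ended at the ICAM2 fragment. From the CD79B bait, the 3 fragments next to the latter, which cover ICAM2 introns and another ICAM2 start site, were joined by 11 to 12 reads with scores of 5.05 to 5.71. The remaining fragment of the run was called from its own bait, named C17orf72 and RP11-214C8.2, with 8 reads and a score of 7.27. A fragment with a start site of ERN1, a sensor of endoplasmic reticulum stress, was joined at 195 kb by 9 reads (score 6.83). Downstream, SMARCD2, a chromatin remodelling subunit, was joined at 95.6 kb by 17 reads (score 5.54). The ICAM2 bait was also the most similar to CD79B in what it contacted: 6 of the 9 other ends of CD79B were other ends of ICAM2, which is 66.7% of the former and 30% of the 20 of ICAM2 (Jaccard index 0.261), and the CSHL1 and GH1 bait shared as many (Jaccard index 0.188).

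CD79A had fewer contacts, and all of them lay downstream of it. Its bait is a short fragment of 1.04 kb (chr19:42380785-42381824) that carries its start sites and those of no other protein-coding gene. The nearest contact, at 11.9 kb over exons of ARHGEF1, was joined by 39 reads and scored 13.5. The fragment at 77.7 kb that holds the start site of RABAC1, a Rab-binding protein of the Golgi, was joined by 20 reads and scored 14.6. The fragment between them that is named ARHGEF1, a guanine nucleotide exchange factor, was joined by 15 reads at 56.5 kb and was called from both ends, but its score was 5.37 from the CD79A bait and 16.4 from the ARHGEF1 bait. The farthest contact, at 148 kb over exons of GRIK5, a glutamate receptor subunit, had 8 reads and a score of 5.09.

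The 3 surface genes outside the dimer had contacts on both sides. CD22 shares its 19.9-kb bait (chr19:35803651-35823577) with exons of MAG, and its 13 calls reached 8 other baited fragments. The highest scores lay downstream at 2 DMKN fragments 178 kb and 190 kb away, joined by 20 and 21 reads with scores of 12.4 and 14.0, and the former fragment also carries KRTDAP; both are genes of differentiating keratinocytes. A run of 4 adjacent fragments over 37.4 kb, starting at the fatty acid receptor gene FFAR2 (127 kb, 15 reads, score 5.90), was joined by 9 to 15 reads. The related FFAR3, at 36.5 kb, was called from its own bait with 15 reads and a score of 9.37, and AC002511.1 at 77.3 kb with 8 reads and a score of 7.34. Upstream, FAM187B had the most reads of any CD22 call, 22 at 90.8 kb (score 6.47), the fragment of LSR and USF2 had 17 at 55.8 kb (score 5.00), and FXYD3 was the farthest contact at 207 kb, with 11 (score 5.12). The LSR bait shared 7 of the 11 other ends of CD22 (Jaccard index 0.438).

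MS4A1 (bait chr11:60215020-60224420) was joined to 3 upstream fragments of its own gene cluster. The one with the most reads and the highest score, 27 reads and 7.91 at 56.5 kb, holds a start site of MS4A14. The fragment named MS4A14 and MS4A7 at 71.6 kb had 19 reads (6.80), and one over an intron of MS4A6E at 85.8 kb had 22 reads (7.79). Downstream, a fragment at 169 kb without annotated protein-coding genes had 15 reads (6.81). The longest call of the set joined MS4A1 to TMEM132A at 473 kb, on 4 reads with a score of 6.52. CR2 (bait chr1:207626422-207631615) was joined to the start of its neighbour and relative CR1, the erythrocyte complement receptor, at 37.4 kb by 24 reads (7.15). That fragment also carries exons of CR2, so the contact cannot be assigned to CR1 alone. The other CR2 contacts lay 416 kb and 439 kb upstream with 10 and 6 reads (8.13 and 5.91), the former in the fragment of a small nucleolar RNA named snoU13 that overlaps PFKFB2.

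**Figure D2:**
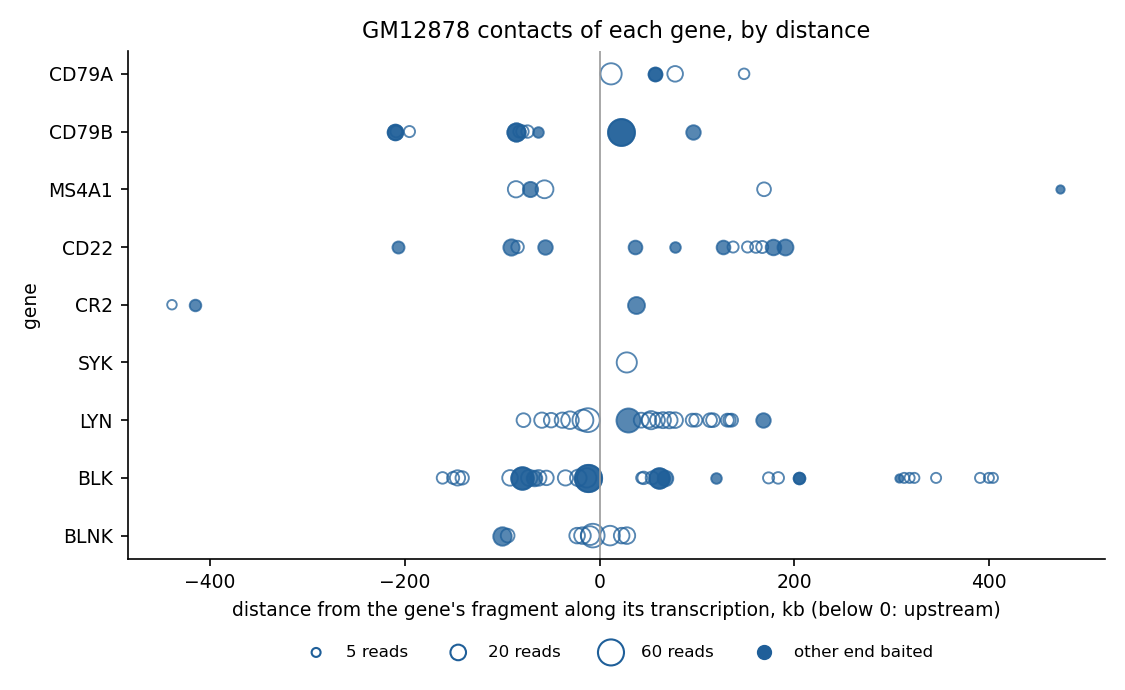
Fragments called with each gene in GM12878 (rows), placed by their distance in kb from the gene's own fragment along its transcription (x axis, values below 0 upstream); circle area grows with the number of reads, and filled circles are fragments with a bait of their own. CD79A and SYK have contacts on the downstream side alone, LYN contacts lie within 168 kb, and the farthest BLK contacts reach 404 kb downstream.

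Among the kinases, LYN contacted fragments along its own gene. Its 23 calls were all made from the LYN bait (chr8:56780974-56794019) and reached 7 upstream and 16 downstream fragments, 15 of which overlap LYN. The highest score, 14.3, belonged to a fragment 12.0 kb upstream without annotated protein-coding genes, joined by 50 reads, and a fragment 17.0 kb upstream had 38 reads (11.3). Inside the gene, the fragment named SNORA1 at 29.2 kb had the most reads, 51, but a score of 7.56. A separate group of scores above 10 lay at 52.9 to 77.6 kb, where 4 fragments had scores of 10.3 to 13.6 on 20 to 28 reads; one of these holds an internal start site of LYN. The farthest call, at 168 kb, had 17 reads (7.24). The SNORA1 bait shared 16 of the 23 other ends of LYN (Jaccard index 0.381).

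BLK had the most calls, but they came from 2 baits. The one at its upstream start sites (chr8:11345287-11352985) had 9 calls, and one in the last part of the gene (chr8:11412169-11420464), which is also named for the non-coding RNAs RP11-148O21.2 and RP11-148O21.4, had 28; 2 of these calls joined the BLK baits to each other, by 20 reads at 67.2 kb with scores of 17.4 and 5.81. For the latter bait, contacts of BLK and of the non-coding RNAs cannot be told apart.

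The upstream BLK bait gave the 2 highest scores among the 9 genes. An intronic fragment of BLK named for RP11-148O21.3 and RP11-148O21.6, 61.3 kb downstream, was joined by 36 reads and scored 32.4 from BLK and 15.4 from the other bait. FAM167A, the neighbouring gene that is transcribed away from BLK, was joined at 12.3 kb by 66 reads, the most of any GM12878 call here, and scored 27.7 and 6.35. The distal bait contacted FAM167A too, at 79.4 kb with 44 reads and scores of 14.7 and 14.5. Beyond the gene it reached the fragment of C8orf49 and NEIL2, a DNA glycosylase, at 205 kb (10 reads, 5.28 and 8.55), and GATA4, a cardiac transcription factor, was called from its own bait at 119 kb with 8 reads (6.17). CTSB, the gene of cathepsin B, was called likewise at 307 kb with 4 reads (5.46). The farthest contact lay at 404 kb, with 7 reads and a score of 6.16. FAM167A shared 21 of the 26 other ends of the BLK baits, or 80.8%, while these made up 28.8% of the 73 of FAM167A (Jaccard index 0.269).

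SYK, the kinase that binds the phosphorylated dimer, had 1 call, the fewest that a listed gene can have, with a contact inside its own gene. The bait at its upstream start sites (chr9:93563299-93566015) was joined to chr9:93588406-93596926, 28.0 kb downstream, by 35 reads with a score of 5.20, close to the threshold. RefSeq promoter sequences, matched by exact sequence to hg19, were found for 5 of the 9 genes, and by their positions the contacted fragment holds an internal SYK start. The bases upstream of this start and of the most upstream RefSeq start in the baited fragment are printed below because the call joins the fragments that hold them. They lie inside the fragments, not at their ends, and cover chr9:93563632-93563881 in the baited fragment and chr9:93589452-93589701 in the contacted one, both on the plus strand.
SYK, baited fragment: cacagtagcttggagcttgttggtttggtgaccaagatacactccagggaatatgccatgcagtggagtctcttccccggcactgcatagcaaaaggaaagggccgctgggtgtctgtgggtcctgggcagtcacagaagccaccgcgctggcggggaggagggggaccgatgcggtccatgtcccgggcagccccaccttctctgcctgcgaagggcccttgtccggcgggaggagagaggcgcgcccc
SYK, contacted fragment: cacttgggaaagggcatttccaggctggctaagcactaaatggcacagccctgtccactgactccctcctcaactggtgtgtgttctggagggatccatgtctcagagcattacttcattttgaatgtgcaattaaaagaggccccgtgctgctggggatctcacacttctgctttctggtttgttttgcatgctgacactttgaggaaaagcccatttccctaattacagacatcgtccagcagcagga

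BLNK, the adaptor, had 9 calls from 2 baits. The bait at its start sites is the shortest of the set, 0.529 kb (chr10:98031145-98031673), and had 6 calls within 28.1 kb, with 20 to 33 reads and scores of 5.09 to 7.78, the highest at 28.1 kb. Of these, 3 lay downstream over the gene. The bait at an internal start site (chr10:97963183-97965241), which also carries exons of ZNF518A, had 3 calls. The nearest, at 6.90 kb within BLNK, had 49 reads (6.64). It was also joined at 100 kb, past the start of BLNK, to the fragment of DNTT by 29 reads (6.08). DNTT encodes terminal transferase, which adds bases at antigen receptor gene junctions in B and T cell precursors. The adjacent fragment, at 94.3 kb, had 15 reads (6.16). The bases upstream of the BLNK start sites, chr10:98031345-98031576 on the minus strand, hold an E-box, CAGCTG, which is set in capitals and is shown as the only match to this motif among the promoters examined.
BLNK, upstream of the start: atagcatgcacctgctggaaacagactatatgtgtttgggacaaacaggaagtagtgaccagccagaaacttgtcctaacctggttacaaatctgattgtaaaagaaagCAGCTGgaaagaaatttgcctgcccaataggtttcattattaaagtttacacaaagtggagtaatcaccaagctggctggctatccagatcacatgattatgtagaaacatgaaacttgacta

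Motifs of 4 B cell regulators were searched on both strands in the 250 bases upstream of the 7 RefSeq starts of these 5 genes (CD79A, CD22, CR2, SYK and BLNK). ATGCAAAT, the octamer of immunoglobulin promoters, and CCCNNGGG, the core of EBF1 sites, were in none of the 7, and were in 1.63% and 17.1% of 35116 RefSeq promoters of the same length. GAGGAAG, a PU.1 core, was in 1 of 7, at SYK, and in 11.2% of all promoters, and CAGCTG was in 1 of 7 and in 14.0%. The matches found did not overlap, and the lack of a match says only that these letters are not in the window.

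Calls of the 9 genes with an unbaited other end mostly rested on fewer reads than other calls of the same reach. All calls were divided by distance and by whether the other end was baited, and 23 of 107 member calls in GM12878, or 21.5% (14.8-30.2%), had more reads than the median of their class. This was so for 6 of 70 calls with an unbaited other end, 8.57% (3.99-17.5%), and for 17 of 37 calls between baits, 45.9% (31.0-61.6%). The 9 pairs called from both ends enter the 107 and the 37 calls in each direction with the same reads. The intervals of these shares are therefore too narrow. Most of the calls with an unbaited other end came from BLK and LYN, of whose 35 and 23 calls 12 and 2 were between baits. The 8.57% thus mainly describes these genes, and neighbouring fragments called from the same bait are not independent. Between 50 and 100 kb, where 23 member calls had an unbaited other end, their median was 18 reads (range 11 to 28) against 22 over 9098 calls. Between 100 and 200 kb the 18 such calls had a median of 11 against 17. Between baits the medians were 20 against 21 from 50 to 100 kb (17 calls), 17 against 17 from 100 to 200 kb (5 calls), and 51 against 29 from 20 to 50 kb (5 calls). The last 5 hold the contact of CD79B with CSHL1 and GH1 (64 reads) from both ends, which raises their median. CD79B was above the class median in 6 of 13 calls, BLK in 7 of 35 and LYN in 3 of 23, while no CD79A or CR2 call was above it. The 6 CD79B calls were 3 contacts of 64, 28 and 20 reads, each counted from both ends. Those of BLK included the contacts of 66, 44 and 36 reads, also counted from both ends. In mESC 10 of 34 calls were above the class median, 29.4% (16.8-46.2%), 7 of them among the 8 Cd79b calls. Of the latter, the Gh and Icam2 contacts were counted from both ends.

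**Figure D3:**
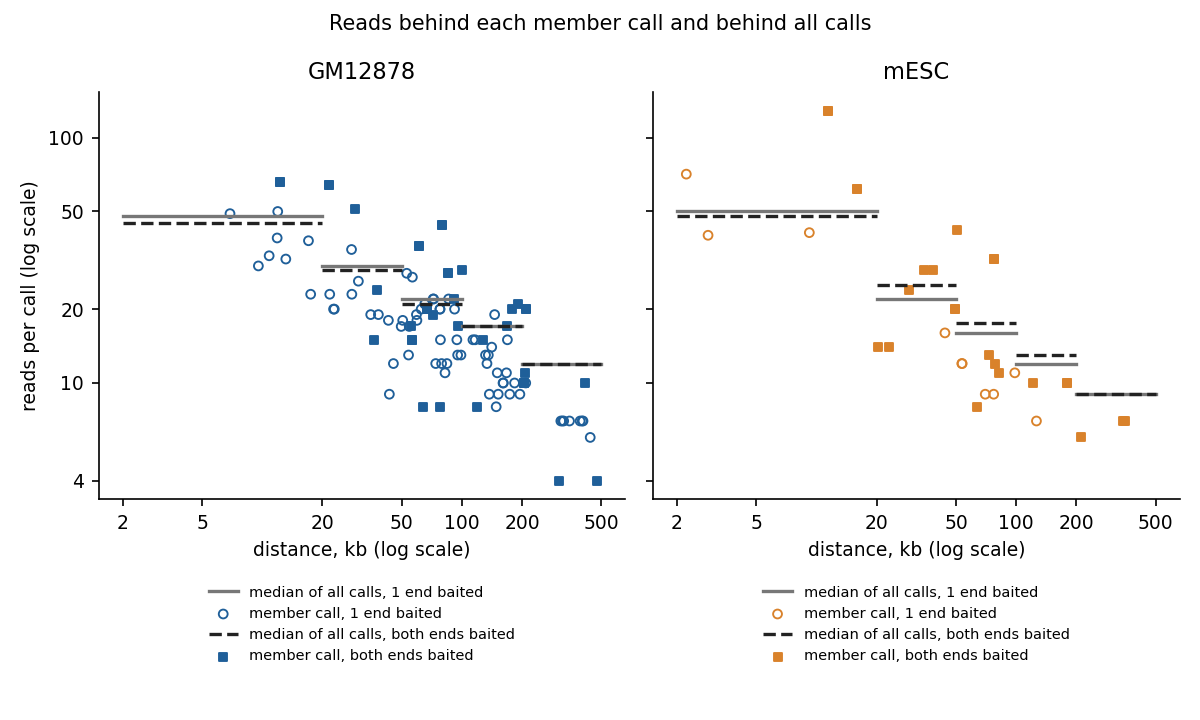
Reads behind each call (y axis, log scale) against its distance in kb (x axis, log scale) in GM12878 (left) and mESC (right); filled squares are member calls with baits at both ends, open circles those with 1 baited end, and the lines give the median of all calls in each distance class (the nearest class, from 0 kb, is drawn from 2 kb). Of the GM12878 member calls 23 of 107 lie above the line of their class, and the Cd79b call at 129 reads is the highest in mESC.

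The other cell type captured, mESC, does not make the B cell receptor, and its list was searched for contacts of the same genes outside the B lineage. Numbers of calls cannot be compared directly, since the cell types differ in species, bait design and depth, so each ratio is set beside the share of all genes that passes it. Of the 5 genes listed in both cell types, 3 had at least 2 times as many calls in GM12878: LYN with 23 against 3, CR2 with 3 against 1 and CD22 with 13 against 6. Over all 8690 symbols listed in both, 31.6% did. CD79A alone had at least 2 times as many in mESC, 16 against 5, which 34.6% of symbols did. Its mouse bait also holds a start site of Arhgef1, so the 16 belong to both genes, unlike the human bait. CD79B had 13 calls in GM12878 and 8 in mESC. These calls depended on the settings. At a score of at least 10, CD79A turned, with 3 calls in GM12878 and 1 in mESC, CD22 had 2 in each and CR2 none in either, while LYN had 6 and none. With the gene at the bait end, CD22 had 11 and 6 calls, under the 2 times, and CR2 3 and none. Of the 8 genes whose symbol is in the mm9 annotation, MS4A1, BLK and BLNK had no call in mESC; 26.8% of 11871 symbols called in GM12878 and present in that annotation had none. With 3 of 5, 1 of 5 and 3 of 8 genes, these counts are too few to set the genes apart from the rest. The start-site fragments of Ms4a1, Blk and Blnk appeared at neither end of a listed mESC interaction, and whether they were baited in mouse is not known from the files used here. The mouse gene at the Syk locus is listed as Sykb and therefore did not match the rule. Its 3 calls had 8, 11 and 15 reads with scores of 5.56, 5.32 and 8.52, and lay at 788, 737 and 328 kb, and no fragment within Sykb was among them.

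The mESC contacts of these genes were shorter still and mostly joined baits. Their median distance was 53.5 kb (34.6-77.2 kb) against 139 kb over all mESC calls, and 27 of 34, or 79.4% (63.2-89.7%), spanned less than 100 kb against 39.0%. Both ends were baited in 24 calls, 70.6% (53.8-83.2%), against 36.3% of all mESC calls, and in 63.0% of those with the gene at the bait end. No call joined different chromosomes, which allows up to 8.82%, against 0.569% of all mESC calls. CD79A contributed 11 and CD79B 7 of the calls between baits.

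At Cd79b a growth hormone gene downstream and Icam2 upstream were contacted as in human, a correspondence noticed after the values were seen for the former. The growth hormone gene Gh, 11.5 kb downstream, was joined by 129 reads with scores of 17.4 from Cd79b and 5.98 from Gh, the highest score and the most reads of any mESC call here. Icam2 lay 77.2 kb upstream and was joined by 32 reads with scores of 12.0 and 5.32, against 28 reads, 12.3 and 7.98 at 85.6 kb in human. Between them, 2310007L24Rik at 50.2 kb had 42 reads (13.0) and Scn4a at 38.4 kb 29 reads (6.69), and Tcam1 at 34.6 kb downstream 29 reads (6.03). Neither Scn4a nor Tcam1 was a named partner in human, where the CD79B bait itself carries exons of SCN4A. No Cd79b call went beyond 77.2 kb, whereas SMARCD2 at 95.6 kb and 3 fragments at 195 to 210 kb were called in human. The bait with the most similar contacts was Gm885, which shared 5 of the 6 other ends of Cd79b (Jaccard index 0.556).

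**Figure D4:**
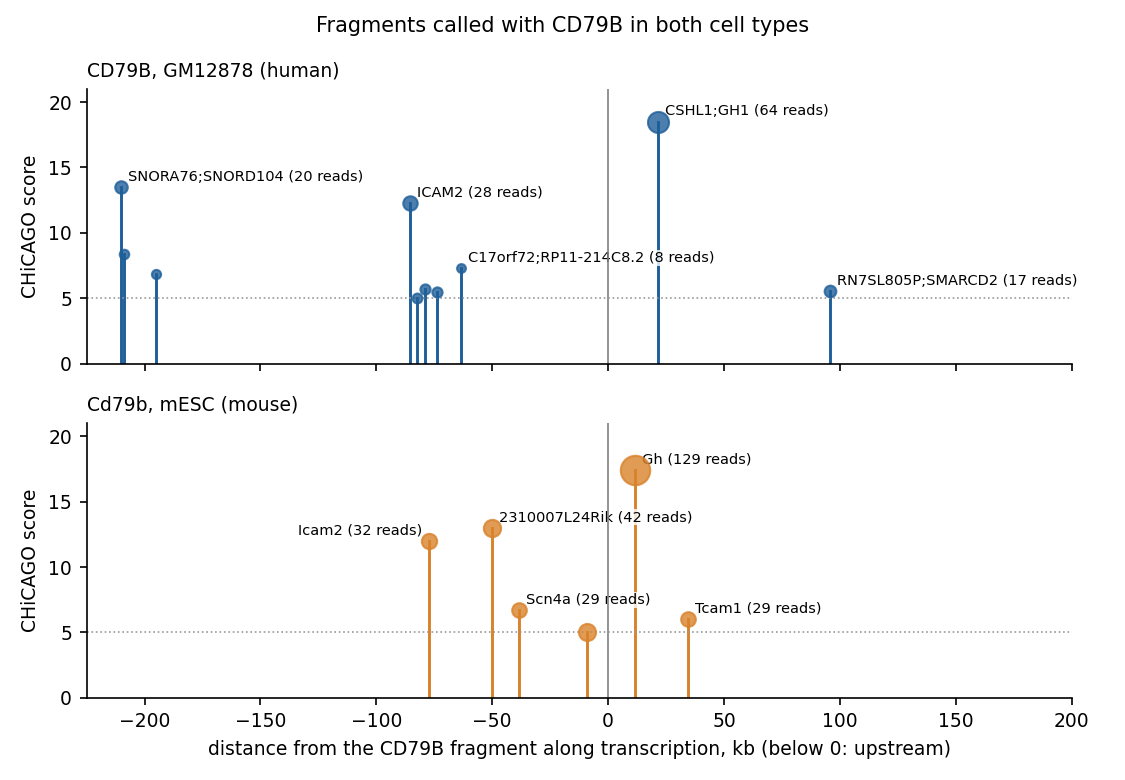
CHiCAGO score (y axis, the higher of the directions where a pair was called from both ends; dotted line at the threshold of 5) of each fragment called with CD79B in GM12878 (top) and Cd79b in mESC (bottom), against its distance in kb along transcription (x axis, values below 0 upstream); circle area grows with reads, and baited fragments carry their listed names. The growth hormone fragment just downstream (64 and 129 reads) and the ICAM2 fragment upstream (28 and 32 reads) are called in both, and the contacts 195 to 210 kb upstream are called in GM12878 alone.

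Cd79a in mouse lies on a 6.92-kb bait (mm9 chr7:25681821-25688741) that also holds a start site of Arhgef1, so its 16 calls belong to both genes, unlike the human bait. Rps19, a ribosomal protein gene 15.9 kb upstream, was joined by 62 reads with scores of 14.6 and 5.91. Downstream, Rabac1 at 73.0 kb had 13 reads (5.32) and Grik5 at 179 kb had 10 reads with scores of 6.96 and 5.54. The human CD79A bait also contacted the fragment with the RABAC1 start (77.7 kb) and a fragment over GRIK5 exons (148 kb), a correspondence chosen after these values were seen. Other baited contacts were an element named uce at 49.4 kb (20 reads, 7.91 and 5.21), Lypd4 at 29.0 kb (24 reads, 6.74), Ceacam10 at 121 kb (10 reads, 5.07), Gsk3a at 342 kb (7 reads, 5.66) and Erf at 352 kb (7 reads, 5.10). Ceacam10 shared 8 of its 13 other ends (Jaccard index 0.178).

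Cd22 had the mouse contacts with the most reads next to its 1.49-kb bait, at 2.23 kb upstream with 71 reads (12.2) and 2.86 kb downstream with 40 reads (6.90), distances that would fall within the human bait. Ffar3 at 23.2 kb and Ffar1 at 20.3 kb downstream were each joined by 14 reads (5.52 and 6.17), and FFAR3 was a contact in human as well. The fragment of Gm17077, 78.2 kb upstream with 12 reads and a score of 11.2, holds start sites of Lsr and Usf2, the genes of the human contact at 55.8 kb; this too was noticed after the values were seen. The farthest was 4930479M11Rik at 210 kb with 6 reads (6.18). The Dmkn bait shared all 6 other ends of Cd22, out of 57 of its own (Jaccard index 0.105). Cr2 was called once, from the Cd46 bait at 82.2 kb on 11 reads (6.01), where Cd46 is a complement regulator of the same gene cluster. Lyn had 3 calls, 2 of them to fragments within the gene at 98.4 and 126 kb (11 and 7 reads, 9.65 and 5.66), and the other to SNORA18.3 at 63.5 kb (8 reads, 6.99).

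By symbol, 2 of 10 pairs of a member and a partner called in GM12878, with both symbols listed in both cell types, were also called in mESC: CD79B with ICAM2 and CD22 with FFAR3. That is 20% (5.67-51.0%), and 35.5% of all 10277 such pairs were called in both. All 10 pairs belonged to CD79B or CD22. CD22 with LSR counted as absent in mESC, because the mouse fragment with the Lsr start site is named Gm17077. The growth hormone contact of CD79B, called in both cell types, was not among the 10 pairs because its symbols differ (CSHL1 and GH1 in human, Gh in mouse). The 20% therefore covers pairs with the same symbols only. No call joined 2 different genes of the set in either cell type.

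Of 32 further genes of the pathway (coreceptors, kinases, lipid enzymes, adaptors and phosphatases), 28 had a call in GM12878 with a median of 6.5 calls, and 29 had one in mESC with a median of 3, where the median over all symbols was 4 in each list. The lists name genes with a call, so these 2 counts have no share over all genes beside them. Of the 25 listed in both, 8 had at least 2 times as many calls in GM12878 (31.6% of all symbols did) and 8 in mESC (34.6%). CD72 and MALT1 were 2 of 27 called in GM12878, with a symbol in the mm9 annotation, and absent from the mESC list, where 26.8% of all such symbols were absent. Genes with at least 10 calls in GM12878 included the phosphatase PTPN6 (SHP-1) with 33 calls, against 17 in mESC, the adaptor DOK3 with 23 against 25, and CR1 with 23, whose symbol is not in the mm9 annotation. VAV3, a guanine nucleotide exchange factor, and PRKCB, the protein kinase C of B cells, had 14 each against 1 each, PIK3AP1 (BCAP) had 13 against 5 and DAPP1 11 against 6. In mESC CD5 and GRB2 also exceeded 10, with 25 and 20 calls against 6 and 7. CR1 was the one gene of this list joined to a member, by the CR2 contact above, whose fragment also carries exons of CR2.

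The mESC calls were also set against pairs of 25-kb bins that interacted in the Hi-C library. At an FDR under 0.05, 4 of the 34 member calls fell in such a pair, 11.8% (4.67-26.6%), and 11.6% of the 97826 mESC calls under 1 Mb did. All 4 were Cd79a calls at 44.0 to 53.6 kb downstream, including uce from both ends, and they fell in 1 bin pair with 37 read pairs against 14.8 expected and an FDR of 0.0497. Among calls of at least 25 kb, whose ends cannot lie in the same bin, the shares were 4 of 25, 16% (6.40-34.7%), and 11.7%. The Icam2 contact of Cd79b, at 77.2 kb, was not in a bin pair at this FDR.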

How the data were processed

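Per the labels and the study's methods, CHi-C read pairs were mapped with Bowtie 1.1.0 within HiCUP (human to hg19, mouse to mm9), and interactions were called with CHiCAGO. The deposited lists give for each call a read count, which the authors averaged over replicates with weights and rounded, so that it is used as a score-like value and not as raw counts, and the CHiCAGO score of the authors, kept at 5 or more. The methods left replicate 1 of GM12878, of poorer quality, out of the estimation of score weights. Depth per replicate is not in the lists used here.

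In the Hi-C list, made by the authors with HOMER 4.7, the deposited count of read pairs per bin pair, the deposited expected number (other) and the deposited FDR, an adjusted p-value, were used; 5 further columns of values were not used.

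Here, names were split at semicolons, commas and vertical bars, and transcript suffixes were removed from mouse names. Distances are between fragment midpoints. Fragments were annotated with the protein-coding genes of GENCODE v44lift37 and vM1. Shares carry Wilson intervals and medians binomial order-statistic intervals (Python 3.11.15, scipy 1.17.1); functions were tested on simulated lists. Likeness of contacts is the number of shared called other ends, with at least 3 required. For each gene the text names the best-scored, most-read and longest call and the other baits. The members and gene lists were chosen with earlier results of these data known. Some items are not reported here.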

Additional observations from a re-analysis of the deposited data

How the results depend on the processing

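Alternatives were a score of at least 10, at least 10 reads, each pair counted once, the gene at the bait end only, the genome browser list and, added after seeing the data, the mouse gene Sykb counted as Syk and, for Hi-C, calls of at least 25 kb. At a score of at least 10, calls fell to 25 in GM12878 and 6 in mESC, the median mESC distance to 33.1 kb, and the share of calls between baits rose to 52.0% and 83.3%; fewer calls enter by construction. With the gene at the bait end only, the GM12878 share between baits was 23.9%, below the 29.4% of all calls, where it was above with either end allowed. In the Hi-C comparison an FDR under 0.01 left 0 of 34 mESC calls (9.56% of all calls), and every listed bin pair gave 17.6% (29.9%). Counting Sykb as Syk gave 37 mESC calls. The direction between cell types turned for CD79A at a score of at least 10 (3 calls in GM12878, 1 in mESC). The other counts, medians and shares over the whole set moved by less than their interval or 1.5 times. Of 78 values for single genes and for shares of all symbols recomputed under these settings, 22 moved, 21 of them downward. No paired analysis was possible because replicates of each cell type were merged by the authors before calling. Calls near 5 reads and scores near 5 are the least certain, and the lists give no replicate error for any of them.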
